A study of Mus musculus with 6 samples.

Results

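Interferon-stimulated genes are the antiviral and immune genes that cells transcribe in response to interferons, and they were followed here in mouse pancreatic islets exposed to the platinum drug cisplatin. The set was a list of 48 gene symbols, and its members were all probe rows of the count table that carry a symbol of the list. A total of 82 probe rows for 47 of the 48 genes were found among 30146 rows for 21400 gene symbols, and no row carried the symbol Mb21d1. Its current symbol in RefSeq is Cgas, whose probe 59708 had 0, 5 and 8 counts in the cisplatin libraries and 2, 0 and 1 in the vehicle libraries; it was not counted among the members. The study asked what cisplatin does to islets of male mice. Isolated islets of wild-type (WT) male C57Bl/6 mice were kept for 48 h in complete RPMI medium with cisplatin at 10 uM, or with the vehicle, saline at 0.9%. Both arms shared genotype, strain, sex, medium and culture time, and the labels give no age. Islets of the same 3 mice were divided between the arms, which gave 3 cisplatin and 3 vehicle libraries, numbered 1 to 3 by mouse. The islets carry no transgene per the labels, and a culture of whole islets holds endocrine cells together with the resident immune, vessel and stromal cells.

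Type I interferons signal through the receptor chains IFNAR1 and IFNAR2 and the kinases JAK1 and TYK2. The kinases activate STAT proteins, among them STAT2, which acts with IRF9 in the complex ISGF3, and ISGF3 binds the interferon-stimulated response element (ISRE) in the promoters of its target genes. Interferon gamma signals through IFNGR1 and IFNGR2, and its target genes carry a different element, GAS. RNA and DNA sensors inside the cell can start interferon production, and beta cells are known to respond strongly to type I interferon, a response studied in the early stages of autoimmune diabetes.

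The promoters of 4 members show the element that ISGF3 binds, and they are printed because these were the called members with the largest fold changes whose promoter holds it. Sequences are from RefSeq (GRCm38.p6), cover 250 bases before to 50 bases after the gene start, and are written 5′ to 3′ on the strand of the gene. Capitals mark the ISRE core, searched as GAAANNGAAA on both strands, so that TTTCNNTTTC is the same core read on the other strand. The windows lie at chr19:34601919-34602218 (minus strand) for Ifit1bl1, chr19:34640639-34640938 (plus strand) for Ifit1, chr12:26456403-26456702 (minus strand) for Rsad2 and chr4:156200769-156201068 (minus strand) for Isg15.
Ifit1bl1: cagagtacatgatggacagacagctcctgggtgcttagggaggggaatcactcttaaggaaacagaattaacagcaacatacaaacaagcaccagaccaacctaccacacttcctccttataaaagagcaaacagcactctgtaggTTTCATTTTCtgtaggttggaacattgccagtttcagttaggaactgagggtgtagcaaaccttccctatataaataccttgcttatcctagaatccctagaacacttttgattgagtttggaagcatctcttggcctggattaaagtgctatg
Ifit1: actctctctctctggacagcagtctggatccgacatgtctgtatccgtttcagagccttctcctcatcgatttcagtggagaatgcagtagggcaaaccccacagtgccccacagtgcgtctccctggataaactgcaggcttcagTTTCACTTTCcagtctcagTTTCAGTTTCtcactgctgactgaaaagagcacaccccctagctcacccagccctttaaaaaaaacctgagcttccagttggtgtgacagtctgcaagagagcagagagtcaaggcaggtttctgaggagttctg
Rsad2: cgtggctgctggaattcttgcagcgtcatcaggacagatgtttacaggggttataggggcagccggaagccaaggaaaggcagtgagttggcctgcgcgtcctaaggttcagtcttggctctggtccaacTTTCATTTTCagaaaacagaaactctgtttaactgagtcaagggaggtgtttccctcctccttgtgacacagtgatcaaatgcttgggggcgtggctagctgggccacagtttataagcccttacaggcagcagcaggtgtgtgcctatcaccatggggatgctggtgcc
Isg15: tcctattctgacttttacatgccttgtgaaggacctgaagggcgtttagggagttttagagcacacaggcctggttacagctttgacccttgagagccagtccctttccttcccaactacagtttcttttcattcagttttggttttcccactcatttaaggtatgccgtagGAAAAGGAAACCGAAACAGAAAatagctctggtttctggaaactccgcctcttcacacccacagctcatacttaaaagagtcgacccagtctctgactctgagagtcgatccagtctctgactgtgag
Ifit1bl1 and Ifit1, which lie on chromosome 19 with 3 genes between them, both hold a core with 94 bases between its last base and the gene start, and Ifit1 holds a second one at 75 bases. The core of Rsad2 has 110 bases between it and the gene start, and the same 10 letters as that of Ifit1bl1. In Isg15, cores that end 68, 62 and 56 bases short of the start overlap and form an unbroken run. Promoter windows were matched for 36 of the 47 member genes, and 18 of the 36 (50.0%) hold the core on either strand, against 1079 of 27025 genes in the table (3.99%). Of the matched members, the core was present in 10 of 15 genes with a called row, 2 of 6 tested without a call and 6 of 15 with no tested row. The GAS core, searched as TTCNNNGAA (which reads the same on both strands), was present in 9 of 36 member genes (25.0%) and in 9.55% of all genes. A match is a description of these letters, not of a bound site.

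Library totals lay between 1116916 and 2272276 counts, and the vehicle libraries were the deeper ones. The p53 target Cdkn1a (probe 30669) was at 1005, 948 and 900 CPM with cisplatin and at 30.4, 61.2 and 39.4 CPM with vehicle, so the treatment labels and the libraries match. A CPM is a library's count for a probe divided by the sum over tested rows, per 1000000, after scaling with TMM factors, which correct for differences in library composition. The probes for the hormone insulin took 3.31 to 10.1% of counts with cisplatin and 7.81 to 10.8% with vehicle, as the islet label requires. Cisplatin library 3 stood apart, with 28.6% of its counts on mitochondrially encoded transcripts against 0.188 to 3.11% in the other libraries. The cisplatin libraries differed more from each other than the vehicle libraries did, and no 2 libraries of an arm agreed within the noise of counting.

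Member rows took a larger share of each cisplatin library than of any vehicle library. The share was 0.382% (95% Wilson interval 0.371 to 0.394), 0.253% (0.245 to 0.262) and 0.275% (0.266 to 0.284) in cisplatin libraries 1 to 3. In vehicle libraries 1 to 3 it was 0.115% (0.110 to 0.119), 0.0960% (0.0912 to 0.101) and 0.116% (0.111 to 0.120). The intervals cover counting error only. Ifi30, Isg20 and Usp18 held 52.4 to 63.8% of the member counts with cisplatin and 45.8 to 48.2% with vehicle, and without these 3 rows the remaining members still took 0.0995 to 0.174% against 0.0520 to 0.0621%. In whole islets, more RNA per cell and more cells of a type that carries these transcripts cannot be told apart.

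More members reached detection with cisplatin than with vehicle, although the cisplatin libraries were the shallower ones. Detection was set at 10 counts or more in at least 2 of the 3 libraries of an arm. By that measure 35 of the 82 rows were detected with cisplatin and 24 with vehicle: 24 in both arms, 11 with cisplatin alone, 0 with vehicle alone and 47 in neither. The 11 rows were 2 rows of Ifit1, 1 each of Ifit1bl1 and Ifit3, 2 rows of Rsad2, and 1 each of Isg15, Gbp2, Gbp3, Ifi35 and Xaf1. With all libraries thinned to the shallowest total, 34 rows were detected with cisplatin and 19 with vehicle. With a single count taken as detection the arms were alike, at 56 and 55 rows, so the difference lay in how many rows had more than a trace of counts. A total of 5 rows had 0 counts in all 6 libraries, which allows up to 3 counts over an arm, or 0.947 CPM with cisplatin and 0.451 CPM with vehicle.

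**Figure D1:**
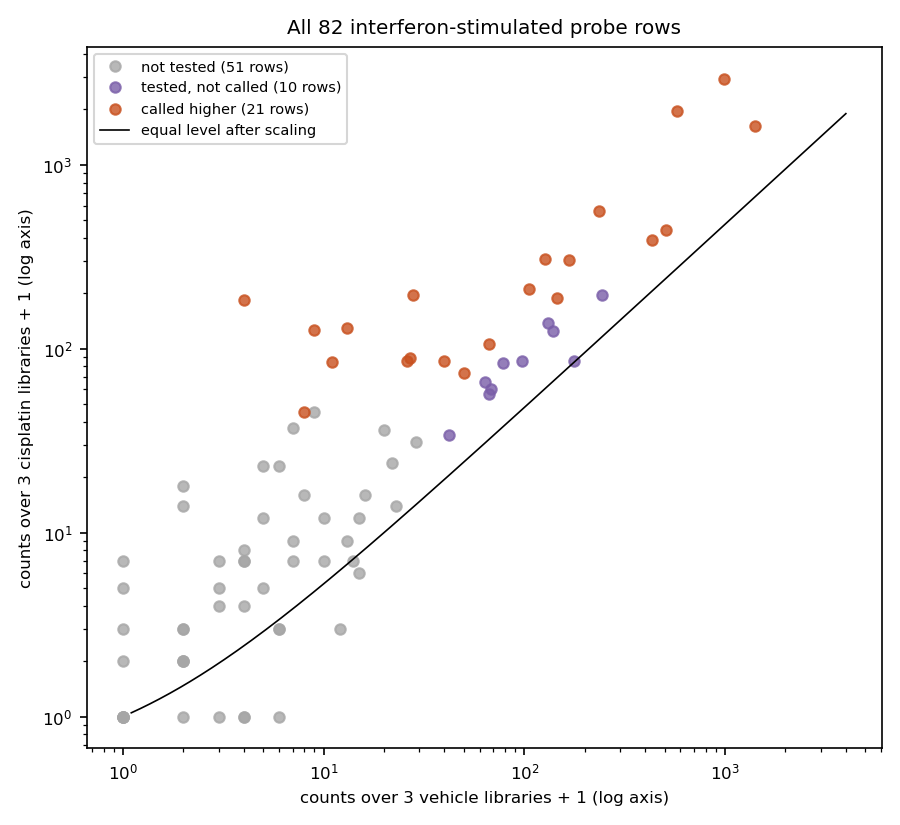
Counts of every member probe row summed over the 3 libraries of each arm (both axes logarithmic, 1 count added), with vehicle on the horizontal and cisplatin on the vertical axis; colours give the outcome of the test, and the line marks equal scaled levels. The 21 called rows lie above the line, and the untested rows crowd at the lower left, with at most 44 counts with cisplatin and 28 with vehicle.

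Of the 82 rows, 31 rows for 25 genes passed the filter on low counts and were tested, with edgeR's quasi-likelihood test and p-values adjusted over all 9381 rows tested. A total of 21 rows for 17 genes rose with cisplatin and 0 fell, where 11.1% of all tested rows were called higher and 13.9% lower (25.0% in either direction). The other 10 rows were not called. In 25 of the 31 rows all 3 cisplatin libraries lay above all 3 vehicle libraries, against 19.1% of all tested rows, and the reverse was seen in 0 of 31, against 24.3%. The median log2 fold change was 1.72 over the 31 rows and -0.07 over all tested rows. These counts are a description, because 6 of the 31 rows had passed the filter in the 3 cisplatin libraries and in none with vehicle, and such rows had to differ. They were both tested rows of Ifit1 and the rows of Ifit1bl1, Rsad2 (probe 65054), Rtp4 and Isg15. The filter asked for 3 passing libraries, and 14 of the 31 rows, these included, had fewer than 3 from vehicle. Such rows needed cisplatin libraries to be tested. Among the called rows they also included Ifit3, Rsad2 (probe 31088), Gbp3 (probe 74734) and Ddx58 (probe 80748). The other 51 of the 82 rows, and with them 22 member genes, could not be tested. Each p-value rests on the spread among 3 libraries per arm, moderated toward the spread of the other tested rows.

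**Figure D2:**
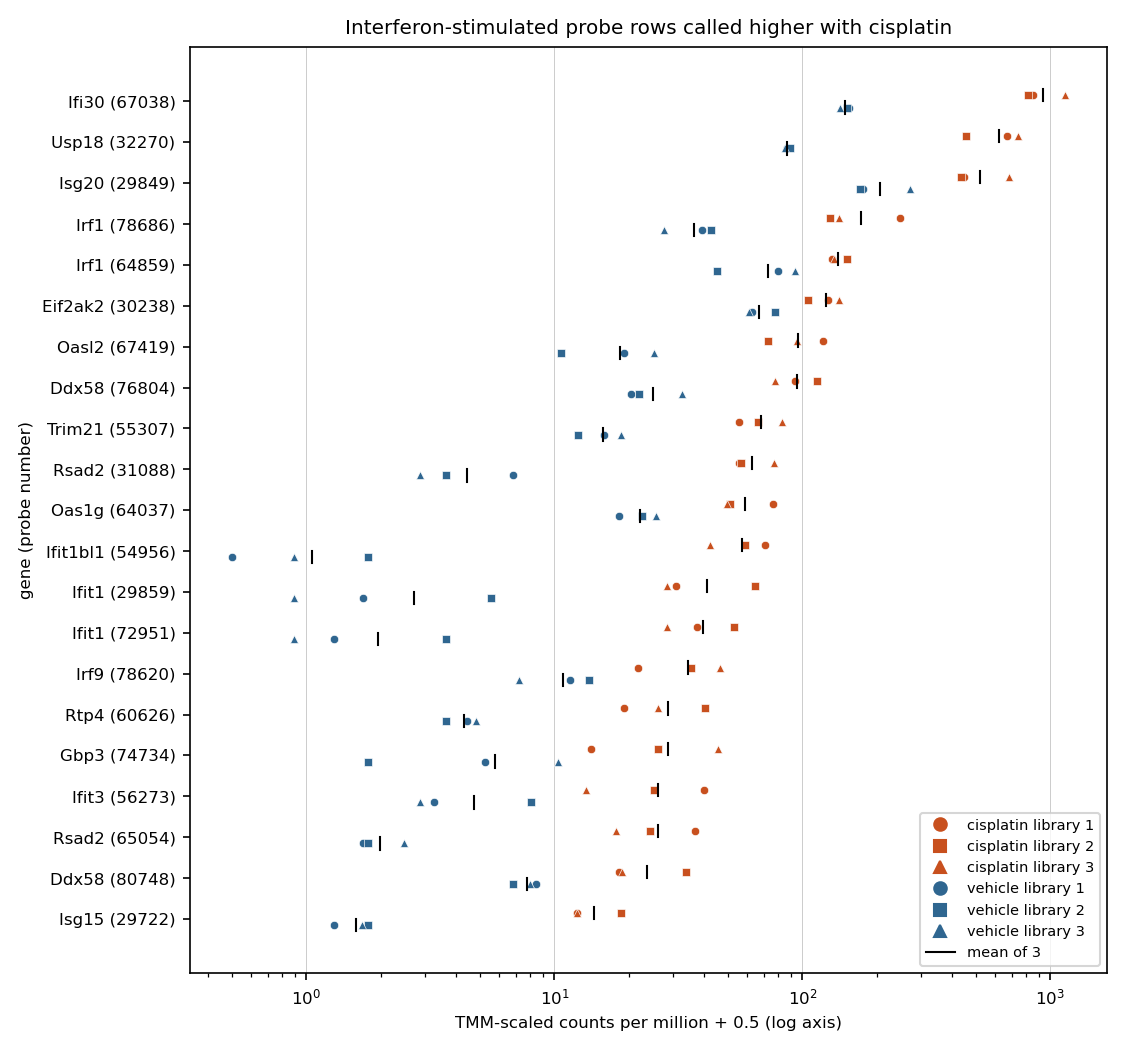
Level of the called member rows in each library, in CPM on a logarithmic horizontal axis with 0.5 CPM added; orange points are cisplatin and blue points vehicle libraries, shapes give the library number and ticks the mean of 3. The groups do not overlap in any of the 21 rows.

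The highest value of a called row was in cisplatin library 1 for 6 rows, in library 2 for 7 and in library 3 for 8. The arms did not overlap in any called row, so the cisplatin libraries below the highest one still lay above all vehicle libraries. A single library could still lead a row: Irf1 (probe 78686) was at 248, 128 and 139 CPM in cisplatin libraries 1 to 3. The rows were picked by their calls, so this tally is a description. The lowest value was in vehicle library 1 for 5 rows, library 2 for 7 and library 3 for 9. Of the 21 rows, 12 were called under every alternative analysis run for them (14 for the main probe of a gene, 13 for a second probe): both rows of Ifit1 and of Rsad2, Ifit1bl1, Oasl2, Usp18 (probe 32270), Trim21, Irf1 (probe 78686), Ddx58 (probe 76804), Rtp4 and Ifi30. The other 9 lost the call under at least 1 alternative and are marked where they are described. Among the 12, the rows of Ifit1, Ifit1bl1, Rsad2 (probe 65054) and Rtp4 had passed the filter through the cisplatin libraries alone. Rsad2 (probe 31088) had passed in all cisplatin libraries and in 1 vehicle library, so it too needed cisplatin libraries. The alternatives do not remove that limit.

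Among the sensors, the RIG-I gene Ddx58, whose product recognises viral and other foreign RNA in the cytosol, rose at both of its tested probes. Probe 76804 was at 93.0, 114 and 77.2 CPM with cisplatin and at 19.8, 21.5 and 32.3 CPM with vehicle, a log2 fold change of 1.94 ± 0.36 (SE; adjusted p = 0.00166). Probe 80748 was at 17.8, 33.3 and 18.2 CPM against 7.91, 6.31 and 7.48 CPM, a log2 fold change of 1.66 ± 0.57 (adjusted p = 0.0453). The arms did not overlap at either probe. The call of probe 80748 was lost without cisplatin library 2 (adjusted p = 0.168) or any vehicle library (0.109 to 0.168), with the mouse as a block (0.108), with no filter (0.164), by library totals alone (0.201) and in thinned libraries (0.0808). The other sensors had too few counts to test. After scaling, equal summed counts in the arms gave a ratio of 2.10, cisplatin over vehicle. The RNA sensor Ifih1 had 11 counts over the cisplatin libraries and 14 over the vehicle libraries, and Dhx58, a regulator of RNA sensing, had 11 and 9. The nucleic acid sensor Zbp1 had 1 and 1, and Tmem173, the gene of the adaptor STING, had 3 and 2.

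The double-stranded RNA-responsive enzymes gave 1 call. Eif2ak2, the gene of the kinase PKR that stops translation, was at 127, 105 and 139 CPM with cisplatin and at 62.1, 77.0 and 60.2 CPM with vehicle. The arms did not overlap, and the log2 fold change of 0.90 ± 0.30 (adjusted p = 0.0402) was below 2-fold. The call was lost without cisplatin library 3 (adjusted p = 0.0836), vehicle library 1 (0.155) or vehicle library 3 (0.191), with the mouse as a block (0.0622), with no filter (0.178) and with library totals alone, which gave 0.43 (0.422). Adar, which edits adenosines in double-stranded RNA, was at 28.8, 10.5 and 11.8 CPM against 14.2, 4.42 and 9.05 CPM. Its arms overlapped, and the log2 difference of 0.87 ± 0.66 was not called (adjusted p = 0.367).

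Of the transcription factors, Irf1 and Irf9 rose and Stat2 was not called. Irf1, a factor induced by both kinds of interferon, was read by a pair of tested probes. Probe 78686 was at 248, 128 and 139 CPM with cisplatin and at 38.7, 42.3 and 27.2 CPM with vehicle, a log2 fold change of 2.26 ± 0.35 (adjusted p = 0.000589). Probe 64859, the one with the higher mean, was at 131, 150 and 134 CPM against 79.1, 44.8 and 92.5 CPM, a log2 fold change of 0.93 ± 0.32 (adjusted p = 0.0486). The arms did not overlap at either probe, yet the smaller difference lost its call when a library was left out, cisplatin library 1 excepted (adjusted p 0.0714 to 0.133), with no filter (0.152) and with library totals alone, which gave 0.45 (0.422). Irf9, the DNA-binding subunit of ISGF3, was at 21.1, 35.2 and 46.1 CPM against 11.1, 13.3 and 6.69 CPM, a log2 fold change of 1.72 ± 0.52 (adjusted p = 0.0261). Its arms did not overlap either. Its call was lost without cisplatin library 2 (adjusted p = 0.0599), cisplatin library 3 (0.0865), vehicle library 1 (0.0925) or vehicle library 3 (0.144), with no filter (0.0574) and with library totals alone (0.137). Stat2, the partner of Irf9 in ISGF3, was at 72.7, 1.90 and 37.5 CPM with cisplatin and at 29.6, 15.2 and 15.3 CPM with vehicle. Cisplatin library 2 was the lowest of all 6 and the arms overlapped. The log2 difference of 0.90 (95% interval -0.69 to 2.48; adjusted p = 0.411) was 0.07 without cisplatin library 1. Irf7, the factor that amplifies interferon production, had 2 counts against 5 at its main probe, too few for a test. Its scaled ratio was 0.840 (95% counting interval 0.0800 to 5.13).

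The IFIT family, proteins that bind foreign RNA and block its translation, held the largest fold changes of the set. The tested rows of Ifit1bl1 and Ifit1 had passed the filter in the cisplatin libraries and in no vehicle library. Ifit1bl1 (probe 54956) had 83, 61 and 39 counts with cisplatin and 0, 2 and 1 with vehicle. The ratio of scaled levels was 128 (95% counting interval 43.2 to 627), and the row was called (adjusted p = 5.1e-05). Its fitted log2 fold change moved from 6.72 to 6.12 without vehicle library 1 and to 7.69 without vehicle library 2, so its size rests on a handful of vehicle counts. Ifit1 was read by a pair of probes with like results. Probe 29859 was at 30.4, 63.7 and 27.9 CPM with cisplatin and at 1.19, 5.05 and 0.394 CPM with vehicle, and probe 72951 was at 37.2, 52.3 and 27.9 CPM against 0.791, 3.16 and 0.394 CPM. Both were highest in cisplatin library 2 and, among the vehicle libraries, in library 2. The log2 fold changes were 4.31 ± 0.76 (adjusted p = 0.00125) and 4.85 ± 0.72 (adjusted p = 0.000411), and they were 5.55 and 5.86 without vehicle library 2. Ifit3 was at 39.7, 24.7 and 12.9 CPM against 2.77, 7.58 and 2.36 CPM, a log2 fold change of 2.65 ± 0.69 (adjusted p = 0.0126). Its arms did not overlap, but the call was lost without vehicle library 1 (adjusted p = 0.0770) or vehicle library 3 (0.0762), and the value was 3.29 without vehicle library 2. Ifit2, which lies beside Ifit3 on chromosome 19, had 11 counts against 4 at its best probe, too few for a test. The IFIT genes are close relatives, and whether their probes share reads was not tested.

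The oligoadenylate synthetases, which sense double-stranded RNA and activate RNase L, rose at both tested genes. Oasl2 was at 121, 72.2 and 94.4 CPM with cisplatin and at 18.6, 10.1 and 24.8 CPM with vehicle, a log2 fold change of 2.40 ± 0.40 (adjusted p = 0.000941). Oas1g was at 75.3, 50.4 and 49.3 CPM against 17.8, 22.1 and 25.2 CPM, a log2 fold change of 1.43 ± 0.38 (adjusted p = 0.0148). Mouse 2 had the lowest Oasl2 value in each arm, and neither gene overlapped between arms. The call of Oas1g was lost without vehicle library 1 (adjusted p = 0.0893) or vehicle library 3 (0.0566) and by library totals alone, which gave 1.02 (0.117). The remaining family members were scarce: Oas2 and Oas3 had 0 counts in all libraries, Oas1a had 1 count in each arm and Oasl1 had 6 and 3.

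In the ISG15 system the modifier Isg15 and its protease Usp18 rose, and among the ubiquitin ligases Trim21 rose. Isg15, a ubiquitin-like protein that is attached to other proteins after interferon exposure, had 14, 19 and 11 counts with cisplatin and 2, 2 and 3 with vehicle, or 11.8, 18.1 and 11.8 CPM against 0.791, 1.26 and 1.18 CPM. The arms were far apart at this low level, with a log2 fold change of 3.62 ± 0.86 (adjusted p = 0.00808). The call was lost without vehicle library 1 (adjusted p = 0.0734) or vehicle library 3 (0.0634). Isg15 was tested under 12 of the 14 alternatives. Its mean over all libraries, 7.49 CPM, was below the alternative filter of 10 CPM. Usp18 removes ISG15 from proteins and damps signalling at the type I receptor. Its main probe 32270 was at 666, 454 and 742 CPM with cisplatin and at 86.2, 88.4 and 84.6 CPM with vehicle, the narrowest vehicle spread relative to its mean among the called rows. The log2 fold change was 2.84 ± 0.29 (adjusted p = 3.9e-05). Trim21, an antibody receptor in the cytosol and ubiquitin ligase, was at 55.0, 65.6 and 82.6 CPM against 15.4, 12.0 and 18.1 CPM, a log2 fold change of 2.14 ± 0.39 (adjusted p = 0.00145), with no overlap. Trim25, the ligase that helps to activate RIG-I, was at 36.4, 59.9 and 33.2 CPM with cisplatin and at 18.6, 25.9 and 16.5 CPM with vehicle. Its arms did not overlap, but its log2 difference of 1.09 (95% interval 0.18 to 2.01) missed the threshold after adjustment (adjusted p = 0.0750). It was called without cisplatin library 1 (1.29; adjusted p = 0.0380) and in thinned libraries (1.33; 0.0483). Herc6, a ligase that attaches ISG15 in mice, was the 1 tested member with a point estimate below 0: it was at 38.1, 26.6 and 12.9 CPM against 19.4, 31.6 and 29.9 CPM, a log2 difference of -0.05 (95% interval -1.08 to 0.99; adjusted p = 0.958). Dtx3l had 22 counts against 5, and its neighbour Parp9 had 23 and 21 at its main probe. The scaled ratios were 9.25 (95% counting interval 3.42 to 31.3) and 2.30 (1.22 to 4.37). Neither was tested.

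Rsad2, the gene of viperin, which makes a chain-terminating nucleotide, was called at both probes. Probe 31088 was at 55.0, 56.1 and 76.1 CPM with cisplatin and at 6.32, 3.16 and 2.36 CPM with vehicle, and probe 65054 was at 36.4, 23.8 and 17.2 CPM against 1.19, 1.26 and 1.97 CPM. Cisplatin library 3 was the highest at the first probe and the lowest of its arm at the second. The log2 fold changes were nevertheless alike, at 3.94 ± 0.50 (adjusted p = 0.000134) and 4.05 ± 0.69 (adjusted p = 0.00101), with the first at 4.53 without vehicle library 1. Cmpk2, a nucleotide kinase whose gene lies directly beside Rsad2 on chromosome 12, was at 27.9, 20.0 and 33.2 CPM against 13.4, 17.0 and 13.8 CPM. Its arms did not overlap, but the log2 difference of 0.87 (95% interval -0.15 to 1.90) was not called (adjusted p = 0.201), and the difference between the neighbours was not tested.

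The remaining effectors held 2 more calls. Rtp4, a regulator of receptor trafficking and interferon responses, was at 18.6, 39.9 and 25.7 CPM with cisplatin and at 3.95, 3.16 and 4.33 CPM with vehicle, a log2 fold change of 2.84 ± 0.60 (adjusted p = 0.00379). Isg20, an RNA exonuclease, was at 447, 434 and 683 CPM against 175, 170 and 272 CPM, a log2 fold change of 1.34 ± 0.30 (adjusted p = 0.00572). Mouse 3 had the highest Isg20 value in each arm, and neither gene overlapped between arms. The Isg20 call was lost without vehicle library 1 (1.29; adjusted p = 0.0525) and by library totals alone (0.84; 0.0578). The IFITM proteins, which block fusion of viruses with the cell membrane, had few counts. Ifitm2 had 9.51 to 11.8 CPM with cisplatin and 4.42 to 8.27 CPM with vehicle and was not called (0.80 ± 0.72; adjusted p = 0.459). Ifitm3 had 17 counts with cisplatin, 12 of them in library 1, against 1 with vehicle, so that the ratio of scaled levels was 35.7 with a wide counting interval (5.60 to 1493). All 6 counts of Ifitm1 were in cisplatin library 2. Bst2, the gene of tetherin, had 30 and 28 counts, and Samd9l had 13 and 22.

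Of the 11 rows of antiviral GTPases, 2 were tested and 1 was called higher. Gbp3, a guanylate-binding protein, was called at 1 of its pair of tested probes. Probe 74734 was at 13.5, 25.7 and 45.0 CPM with cisplatin and at 4.74, 1.26 and 9.84 CPM with vehicle, a log2 fold change of 2.34 ± 0.71 (adjusted p = 0.0276). Probe 80156, the one with the higher mean, was at 4.23, 40.9 and 37.5 CPM against 8.30, 13.9 and 13.4 CPM, a log2 difference of 1.21 (95% interval -0.25 to 2.66) that was not called (adjusted p = 0.214). The arms overlapped at the second probe because of cisplatin library 1, which was the lowest of all 6. Without it the second probe was called, at 1.82 (adjusted p = 0.00960), as were the probes of Gbp3 summed, at 1.73 (0.0111), while library totals alone gave 0.62 (0.532). The call of probe 74734 was lost without cisplatin library 2 (adjusted p = 0.0560), cisplatin library 3 (1.86; 0.126), vehicle library 1 (0.110) or vehicle library 2 (0.0824) and by library totals alone (0.0767), and its value was 3.09 without vehicle library 3. Gbp2 missed the filter, with 10, 32 and 2 counts against 3, 1 and 4, and it was the 1 member called with no filter that had not been tested (3.36; adjusted p = 0.0278). Mx1 and Mx2, textbook markers of the type I response, had 6 and 3 counts with cisplatin and 13 and 3 with vehicle. Their scaled ratios were 0.970 (95% counting interval 0.302 to 2.73) and 2.10 (0.281 to 15.7). Laboratory mouse strains including C57Bl/6 are known to carry defective Mx1 genes.

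Among the other induced genes, Ifi30, a thiol reductase of the lysosome that helps to present antigens, rose. It was at 850, 810 and 1149 CPM with cisplatin and at 153, 150 and 142 CPM with vehicle, a log2 fold change of 2.66 ± 0.28 (adjusted p = 4.5e-05). The arms were separated by a wide margin, with vehicle values that differed little between mice. Ifi27, a mitochondrial protein gene, was at 70.2, 54.2 and 59.0 CPM against 23.7, 33.5 and 51.6 CPM. Its arms did not overlap, but vehicle library 3 came close, and the log2 difference of 0.75 (95% interval -0.07 to 1.57) was not called (adjusted p = 0.168). Parp14, an ADP-ribosyltransferase, was at 35.5, 19.0 and 3.22 CPM against 13.4, 5.05 and 8.27 CPM, and it overlapped between arms (1.10 ± 0.73; adjusted p = 0.302; 0.39 without cisplatin library 1). Xaf1 had 36 counts with cisplatin and 6 with vehicle, Ifi35 had 22 and 4, and Ifi44 had 6 and 3; none of these was tested.

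**Figure D3:**
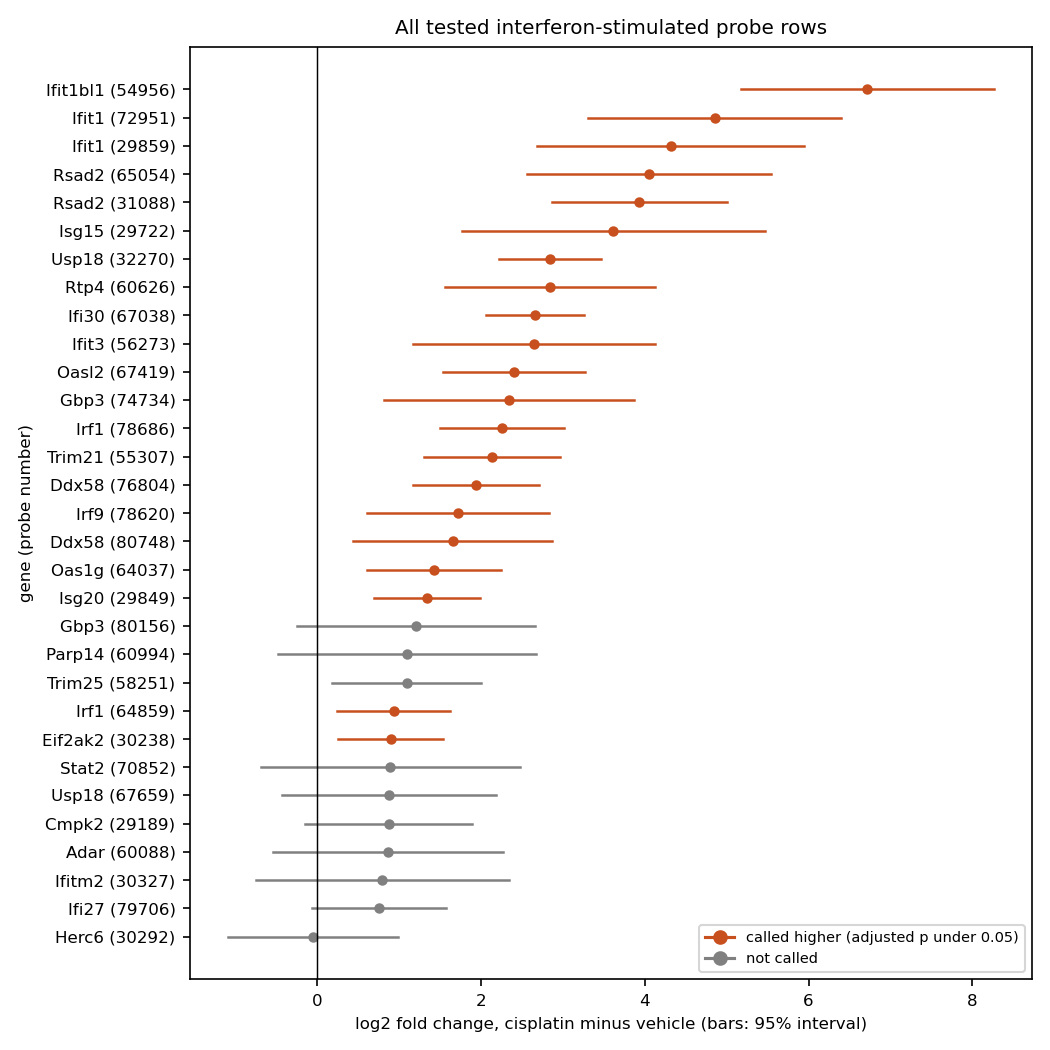
Log2 fold changes (cisplatin minus vehicle) of the 31 tested member rows on the horizontal axis, 1 row a line in order of size, with bars for 95% intervals and orange for called, grey for uncalled rows. The called rows run from 0.90 for Eif2ak2 to 6.72 for Ifit1bl1, and Herc6 alone lies below 0, at -0.05.

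The 51 untested rows held too few counts for a test but could be described by their ratios of summed, scaled counts. Of these rows, 46 had at least 1 count and 36 had a ratio above 1. The 95% counting interval of the ratio lay above 1 for 15 rows and below 1 for 0. The shares over all untested rows of the count table are not given here. Whether these counts are particular to the members was therefore not tested. These intervals hold no variation between animals, and some of the 15, such as Ifitm1, had counts in a single cisplatin library.

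The pathway around the members was read from a list of 70 genes with rows in the table. The 21 genes of interferon ligands had few counts: none of their 26 rows passed the filter, and 13 had 0 counts in all libraries. Ifnb1, the first interferon made by most cells, had 0 counts at both of its probes in all 6 libraries, and Ifng, the type II interferon, had 0 at its 3 probes. All ligand rows together had 166 counts with cisplatin and 23 with vehicle. Most of these were at Ifna2 (probe 75560), an interferon alpha gene chosen here after its values were seen. It had 7, 57 and 36 counts with cisplatin and 0, 0 and 10 with vehicle. The arms overlapped in counts but not in scaled level, with a ratio of 21.0 (95% counting interval 11.0 to 45.2), and with no filter the row was called (4.33; adjusted p = 1.3e-06). Interferon alpha genes are nearly identical in sequence, so which of them this probe read is uncertain.

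The receptors gave a call for the gamma chain Ifngr2. It was at 19.4, 37.1 and 62.2 CPM with cisplatin and at 9.09, 3.79 and 7.48 CPM with vehicle, a log2 fold change of 2.50 ± 0.57 (adjusted p = 0.00636; 1.91 with library totals alone). The arms did not overlap. The type I receptor chain Ifnar1 was called at 1 of its pair of tested probes, and the difference between the probes was not tested. Main probe 69693 was at 15.2, 18.1 and 4.29 CPM against 7.12, 14.5 and 3.54 CPM and overlapped (0.61, 95% interval -1.01 to 2.24; adjusted p = 0.605; 1.22 without vehicle library 2), while probe 68709 was at 16.1, 10.5 and 18.2 CPM against 3.56, 0.631 and 3.15 CPM (2.51 ± 0.81; adjusted p = 0.0362). The latter call was lost without cisplatin library 3 (adjusted p = 0.102) or any vehicle library (0.0934 to 0.127), with no filter (0.0988), by library totals alone (0.0962) and with the mouse as a block (0.0689). Ifnar2, the other chain, was at 18.6, 12.4 and 1.07 CPM against 9.88, 5.68 and 9.45 CPM and was not called (0.36, 95% interval -1.37 to 2.10; adjusted p = 0.790). Its estimate was -0.22 without cisplatin library 1.

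Among the genes that carry the signal from the receptors, the kinase gene Jak1 fell at both tested probes: probe 58998 was at 10.1, 14.3 and 27.9 CPM with cisplatin and at 81.8, 105 and 83.4 CPM with vehicle. Its log2 fold change was -2.38 ± 0.42 (adjusted p = 0.00121), and probe 31221, at 8.46, 11.4 and 10.7 CPM against 109, 78.9 and 55.5 CPM, gave -2.99 ± 0.42 (adjusted p = 0.000289). The arms were apart at both. The main probe of Tyk2 (70539) had 0 counts in all cisplatin libraries and 31, 8 and 17 with vehicle, at least 8.88-fold lower against a floor of 3 counts over the arm; it was not tested and was called with no filter (adjusted p = 0.0106). The other Tyk2 probes were not called with no filter: probe 30032 had 0 counts against 17 (adjusted p = 0.216), and probe 75454 had 5 against 11 (adjusted p = 0.998). The feedback inhibitors Socs1 and Socs3 rose. Socs1, which blocks JAK kinases, was at 9.30, 30.4 and 46.1 CPM against 2.77, 2.53 and 1.57 CPM, a log2 fold change of 3.60 ± 0.73 (adjusted p = 0.00301; 3.00 with library totals alone). Socs3, best known as an inhibitor of cytokine signalling through STAT3, was at 16.1, 50.4 and 21.4 CPM against 7.12, 1.26 and 2.75 CPM, a log2 fold change of 2.90 ± 0.71 (adjusted p = 0.00951). Neither inhibitor overlapped between arms. The Socs3 call was lost without cisplatin library 2 (2.26; adjusted p = 0.0723) or without vehicle library 3 (0.0513), and its value was 3.80 without vehicle library 1.

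Among the genes that induce interferons, Irf3 was called higher and Traf3 lower. Irf3, the factor that sensors activate, was at 118, 294 and 260 CPM with cisplatin and at 98.4, 91.5 and 85.4 CPM with vehicle at probe 70226, a log2 fold change of 1.28 ± 0.34 (adjusted p = 0.0134). Probe 76697 gave 1.93 ± 0.42 (adjusted p = 0.00506) and probe 63594 gave 0.54 ± 0.55 (adjusted p = 0.520). The call at the main probe was lost without cisplatin library 2 (adjusted p = 0.0652), vehicle library 1 (0.0571) or vehicle library 3 (0.0666) and by library totals alone (0.73; 0.128), and the estimate of probe 63594 was -0.17 without cisplatin library 2. Traf3, an adaptor between sensors and IRF3, was at 49.9, 54.2 and 53.6 CPM against 130, 67.6 and 159 CPM at probe 79133, without overlap. Its log2 fold change of -1.18 ± 0.36 (adjusted p = 0.0268) was not called when a library was left out, vehicle library 2 excepted (adjusted p 0.0604 to 0.163). Its probe 79115 had 2 counts against 56, a scaled ratio of 0.0750 (95% counting interval 0.0089 to 0.284; adjusted p = 0.0325), and lost its call without any library (adjusted p 0.0681 to 0.211), with the mouse as a block (0.0985) and with no filter (0.0923). Mavs, the adaptor of RIG-I, was at 18.6, 6.65 and 36.5 CPM against 37.2, 11.4 and 29.1 CPM, overlapped and was not called (-0.35, 95% interval -1.66 to 0.96; adjusted p = 0.724), with -1.02 without cisplatin library 3. Rnaseh2a, a subunit of the nuclease that removes RNA from DNA hybrids, was at 48.2, 73.2 and 32.2 CPM against 13.4, 10.7 and 18.5 CPM, a log2 fold change of 1.83 ± 0.45 (adjusted p = 0.00920). That call was lost without cisplatin library 2 (adjusted p = 0.0536) or without vehicle library 1 (0.0536) and by library totals alone (0.0534). Chemokines and GTPases that interferon gamma induces had no tested row among 10: Cxcl10 had 7 counts against 0, and Cxcl9 and Ido1 had 0. By main probes, 22 genes of the pathway list were tested, of which 5 were higher, 2 lower and 15 not called; over all tested rows 11.1% were higher and 13.9% lower.

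**Figure D4:**
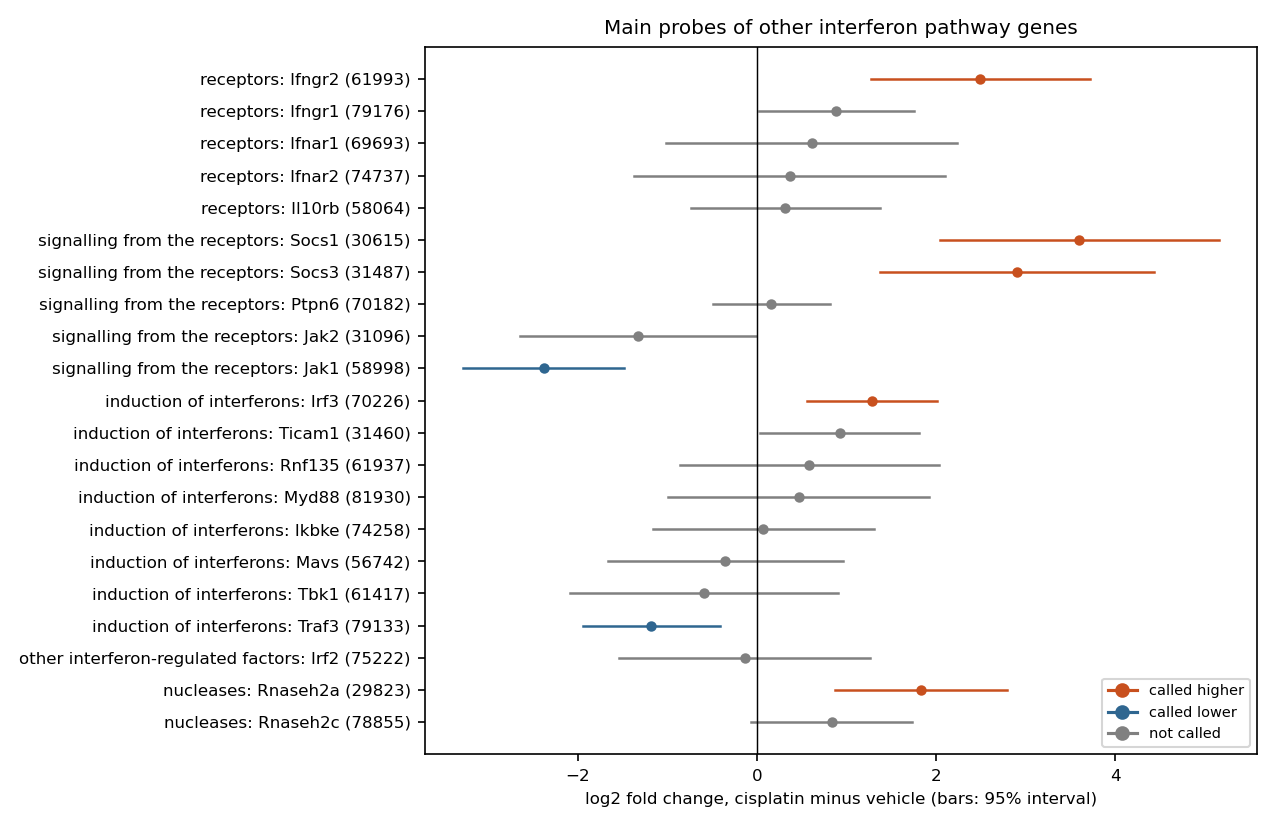
Log2 fold changes (cisplatin minus vehicle) of 21 of the 22 tested main probes of the pathway list on the horizontal axis, by role from receptors to nucleases, with bars for 95% intervals and orange, blue and grey for rows called higher, called lower and not called. Socs1 lies highest at 3.60 and Jak1 lowest at -2.38.

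A total of 6 pairs of probes of the same member gene were compared by the log2 ratio of their counts within a library (0.5 counts added), a comparison chosen after the data were seen. Usp18 had the largest shift: the ratio of probe 32270 to probe 67659 was 5.87, 3.88 and 5.58 with cisplatin and 2.71, 2.92 and 3.71 with vehicle. The means were 5.11 ± 1.07 and 3.11 ± 0.53 (SD, n = 3), without overlap, and the difference was 2.0 (two-sided exact permutation p = 0.1, the smallest that 3 against 3 libraries can give; 0.36 adjusted over the 6 pairs). Probe 67659 itself was at 11.0, 30.4 and 15.0 CPM against 13.0, 11.4 and 6.30 CPM, overlapped between arms and was not called (0.88, 95% interval -0.43 to 2.18; adjusted p = 0.323). The differences of the other pairs were -1.86 for Gbp3, -1.21 for Irf1, 0.36 for Ddx58, -0.37 for Ifit1 and 0.10 for Rsad2, with exact permutation p from 0.2 to 0.9 (adjusted 0.36 to 0.9). The stretch of transcript that each probe covers was not used here.

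**Figure D5:**
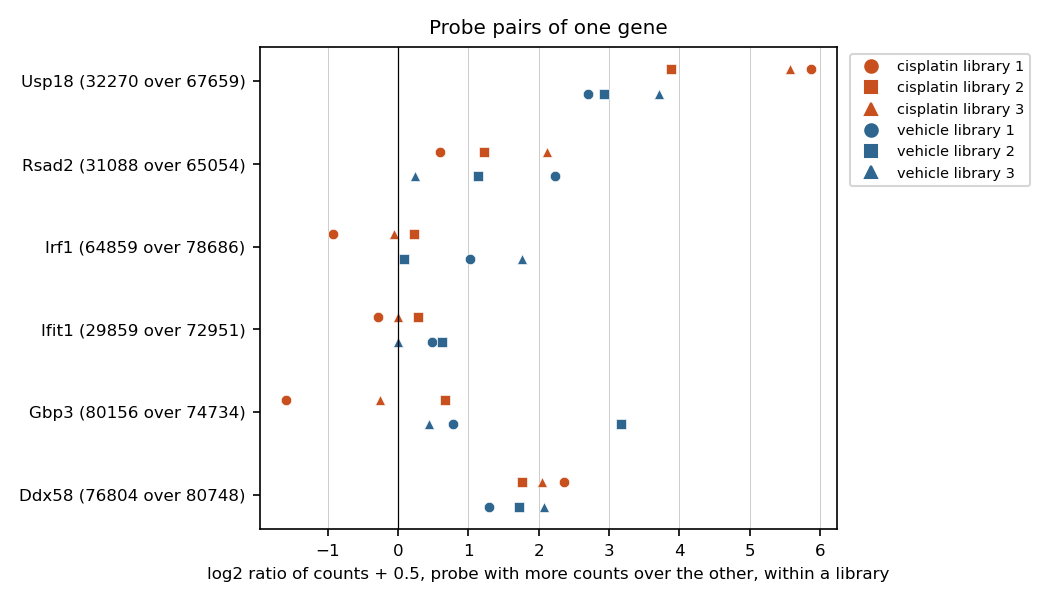
Log2 ratio of the counts of a pair of probes of the same gene in each library, for the 6 member genes with a pair of tested probes; orange points are cisplatin and blue points vehicle libraries. Of these 6 pairs, only for Usp18 do the 3 cisplatin libraries lie wholly above the 3 vehicle libraries.

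Markers of immune cells, which can carry these transcripts, were followed in the same libraries. For the counts of calls below, the shares over all tested rows were 11.1% higher and 13.9% lower. Of a macrophage list, 17 of 18 genes had rows, and 10 of their 26 rows were tested: 0 were higher and 6 lower with cisplatin. Its summed level was 22.0 to 119 CPM with cisplatin and 203 to 366 CPM with vehicle, and Adgre1, H2-Ab1 and H2-Eb1 had 0 counts in all cisplatin libraries, with few in the vehicle libraries. Mrc1 had 0 counts in both arms. Markers of dendritic cells (8 rows, 0 tested) summed to 0 to 9.30 CPM with cisplatin and 2.37 to 4.42 CPM with vehicle, with Siglech and Flt3 at 0 throughout. Markers of T and NK cells (14 rows, 0 tested) summed to 0 to 6.43 CPM against 0 to 2.36 CPM, and markers of neutrophils (6 rows, 0 tested) to 0 to 7.51 CPM against 0 to 1.18 CPM. The endothelial list gave 2 rows higher and 2 lower of 4 tested, with 103 to 144 CPM against 77.0 to 122 CPM. Both higher rows were of Esam, and the lower rows were of Kdr (-3.35) and Eng (-2.54). In cisplatin library 1, the rows of Esam held 34.7 and 58.3 of the 103 CPM. In vehicle library 1 they held 26.9 and 12.3 of the 122 CPM. In the endocrine cells, beta cell markers had 1 row higher and 4 lower of 11 tested and alpha cell markers had 0 higher and 2 lower of 5, with beta cell sums of 67145 to 148137 CPM against 94458 to 167687 CPM. No call was possible for the dendritic cell, T and NK cell and neutrophil lists, and which islet cells carried the member transcripts was not tested.

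Gene length was set beside the calls. The median span in RefSeq was 11.5 kb for the 17 member genes with a row called higher, 21.6 kb for the 8 genes tested without a call and 13.6 kb for the 22 without a tested row. Over all tested genes the median was 23.2 kb, with 9.33 kb among genes with a row called higher and 101.8 kb among those with a row called lower. Gene span moved with the calls over the whole table, and its part in the members' changes was not tested.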

How the data were processed

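TempO-Seq was used on islet lysates with a mouse whole transcriptome panel (version 1.1), per the labels' protocols; neighbouring probes are ligated on the target RNA and the products are sequenced. The authors deposited whole-number counts for every probe in each library. Tools named in the submitters' processing notes, without a role, are STAR 2.7.10b, fastp 0.23.2 and DESeq2 1.44.0. Neither the build nor the rules of counting are given in the sources used here. A probe reads a single stretch of RNA, so levels were not compared between genes.

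The counts were tested with edgeR 4.0.16 (limma 3.58.1, R 4.3.3; promoters and figures with Python 3.11.15). A filter on low counts (filterByExpr, minimum count 10) and TMM scaling preceded the robust quasi-likelihood F-test, in which treatment was the sole term. Benjamini-Hochberg adjustment ran over all rows tested, and a row was called under 0.05, two-sided. Values after ± are SE for log2 fold changes. Ratios carry exact 95% counting intervals. DESeq2 1.42.0 was an alternative. The fits were tested on simulated data.

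The member, pathway and marker lists were chosen with earlier results of these data known. Values in every library are given for each member whose main probe (highest mean CPM) was called and for the 8 uncalled members with the highest mean CPM; other probes stand beside them. Pathway genes are named where called, together with Ifnb1, Ifng, Ifnar1, Ifnar2, Irf3 and Mavs; Tyk2, Ifna2, Cxcl10 and the untested members were named after their values were seen, and 1 gene of that list is not reported here. Promoters and gene spans come from RefSeq tables. Same-numbered libraries come from the same animal per the labels, and the correlation of their deviations from the arm means was -0.116, 0.0336 and 0.219, against -0.227 to 0.168 between mice.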

Additional observations from a re-analysis of the deposited data

How the results depend on the processing

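The count of member rows called higher was 21, and 0 were lower under every alternative run. Leaving out 1 library at a time gave 12 to 23 rows higher, with 12 without vehicle library 1 and 14 without vehicle library 3. Library totals alone in place of TMM factors gave 14, all among the 21, with a median over all rows of -0.54 in place of -0.07 and over member rows of 1.18. RLE size factors and DESeq2 gave 21 each, no filter 18 (77 rows tested), a mean of 10 CPM or more 20, thinned libraries 19, and probes summed per gene 17 genes. With the mouse as a replicate block, 19 rows were higher, all among the 21, and the block ended the calls of Eif2ak2, Ddx58 (probe 80748), Ifnar1 (probe 68709) and Traf3 (probe 79115) but no other call of a named row. Pathway genes called higher numbered 5, against 3 with library totals alone and 2 to 8 over the left-out libraries, with 2 without cisplatin library 2 and 8 without cisplatin library 1. Those called lower numbered 2, against 1 to 3 over the left-out libraries, with 1 without vehicle library 1 and 1 without vehicle library 3. A single count as the detection limit gave 56 rows with cisplatin and 55 with vehicle in place of 35 and 24. No call of a named row changed direction under any alternative. The cause of these changes was not tested. Depth is a limit: 51 of the 82 rows had too few counts for a test, and low vehicle counts set the size of the largest fold changes.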
